A study of Drosophila melanogaster with 3 samples.

Results

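Glut4EF, CG46467 and sbb are 3 long Drosophila genes at 2 loci where binding of the transcription factor Stripe was mapped by chromatin immunoprecipitation followed by sequencing (ChIP-seq). They are 3 of 13945 protein-coding genes on the chromosome arms, and their loci hold 12 of the 1180 genomic regions in which all 3 libraries had a peak (shared regions). The genes were chosen on that measured count: each held 6 shared regions when the gene body and 1000 bp upstream of it were searched. Only 0.043% of protein-coding genes held 6 or more, and since the count made the choice it is given here as a description, with no test. Just above the members stood Hr4, a nuclear receptor gene, with 7 regions, and just below them lbk and stx with 5 each. Each locus was taken as the gene span with 10 kb on either side, which gave 140.684 kb for Glut4EF with CG46467 and 99.099 kb for sbb.

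Stripe is a zinc finger protein of the EGR (early growth response) type that directs the differentiation of tendon cells, the epidermal cells to which the body wall muscles of the fly embryo attach. EGR-type fingers recognise a guanine-rich core in DNA. Glut4EF encodes the fly relative of the mammalian GLUT4 enhancer factor, a zinc finger transcription factor, and is known for its part in wing development. The gene sbb, called scribbler or brakeless, encodes a nuclear protein that acts as a transcriptional co-repressor and is known for its part in photoreceptor axon targeting and larval behaviour. Transcription factors often bind long introns of such genes, where enhancers, the DNA elements that set when and where a gene is transcribed, are commonly found.

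The libraries were made from whole embryos aged 8 to 24 hours of transgenic flies that expressed a Stripe-eGFP fusion, with chromatin sheared by sonication and a labelled size range of 200 to 800 bp. The labels' description names an antibody against GFP, whereas their antibody entry reads sr, and the description was followed here. There were 3 biological replicates of this 1 group and no second genotype, stage or tissue, and whole embryos do not tell which cells gave a peak. The driver of the transgene is not given in the sources used here. The authors' thresholded lists held 2754, 1683 and 3013 peaks in replicates 1, 2 and 3. These were taken from ranked lists of 81528, 89928 and 88129 peaks by IDR, the irreproducible discovery rate. This rate is low where a peak ranks high, and alike, in both sets of reads compared. All thresholded peaks had a global IDR of 0.01 or less. Read depth is not known from the peak lists.

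Glut4EF (FBgn0267336) lies on the plus strand at chr3R:9874681-9995364 of the dm6 assembly, is 120.684 kb long and ranks 56 by length among the protein-coding genes. CG46467 (FBgn0287598) lies at chr3R:9874681-9988876, shares the first transcription start site (TSS) of Glut4EF and is 114.196 kb long. The 6 introns of its transcript CG46467-RA have the same ends as the 6 introns of Glut4EF-RG, so each intronic region of one gene is also intronic in the other, and binding cannot be given to either gene alone. Glut4EF has a distal TSS at position 9874681 and an inner TSS at 9928917. Its introns 1, 2 and 4 are 54140, 12935 and 38384 bp long.

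Of the 6 shared regions at Glut4EF and CG46467, 4 lay in the first intron, 1 in the fourth intron and 1 in the exon between the third and the fourth introns. The strongest was 10.3 kb downstream of the distal TSS, at chr3R:9884875-9885095, with the authors' peak signal at 214, 152 and 166 in replicates 1, 2 and 3 (177 ± 32.7, SD, n = 3). It ranked 30 in the list of replicate 1, 64 in that of replicate 2 and 132 in that of replicate 3. A second strong region lay 1.129 kb closer to the TSS, at chr3R:9883762-9883958, with signals of 135, 81.2 and 139 (118 ± 32.2). This pair stood well above the median signals of the 3 lists, which were 53.3, 52.6 and 56.3.

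The other 4 shared regions of this locus had lower mean signals, between 52.5 and 73.0. The region 39.8 kb from the distal TSS, at chr3R:9914341-9914640, had signals of 70.5, 59.7 and 88.7 in replicates 1, 2 and 3 (73.0 ± 14.6). It was the only one of these 4 above its list's median in each library. The region at 77.1 kb, in the fourth intron at chr3R:9951684-9951971, had signals of 49.7, 46.0 and 62.0 (52.5 ± 8.37). It lay 22.9 kb downstream of the inner TSS.

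Sequence windows of 201 bases at 4 intronic regions show what the regions hold. They are given 5′ to 3′ on the plus strand, from the RefSeq copy of the assembly, which has the coordinates of dm6. In the windows at 10.3, 39.8 and 77.1 kb, capitals mark the EGR core GTGGGCG or GTGGGTG on either strand, so that CGCCCAC and CACCCAC are the same cores read on the other strand. The window at 9.18 kb is shown because it was the second strongest at the locus and held no core. Its capitals mark GCGTAGGCG, which differs from the longer EGR 9-mer GCGTGGGCG by G5A, counted from 1 at the 5′ end of the 9-mer.
Region at 9.18 kb, chr3R:9883758-9883958, plus strand: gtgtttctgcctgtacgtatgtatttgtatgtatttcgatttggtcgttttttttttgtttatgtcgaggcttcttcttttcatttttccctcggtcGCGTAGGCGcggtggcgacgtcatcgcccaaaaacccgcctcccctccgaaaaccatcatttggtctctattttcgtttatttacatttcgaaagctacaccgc
Region at 10.3 kb, chr3R:9884887-9885087, plus strand: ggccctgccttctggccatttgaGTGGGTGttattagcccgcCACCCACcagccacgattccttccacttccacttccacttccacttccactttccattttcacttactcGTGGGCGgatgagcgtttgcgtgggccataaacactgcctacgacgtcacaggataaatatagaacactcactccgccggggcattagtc
Region at 39.8 kb, chr3R:9914398-9914598, plus strand: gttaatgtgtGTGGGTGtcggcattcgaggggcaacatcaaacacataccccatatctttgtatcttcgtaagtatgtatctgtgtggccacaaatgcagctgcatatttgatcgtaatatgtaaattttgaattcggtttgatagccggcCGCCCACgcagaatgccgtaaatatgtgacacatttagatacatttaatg
Region at 77.1 kb, chr3R:9951724-9951924, plus strand: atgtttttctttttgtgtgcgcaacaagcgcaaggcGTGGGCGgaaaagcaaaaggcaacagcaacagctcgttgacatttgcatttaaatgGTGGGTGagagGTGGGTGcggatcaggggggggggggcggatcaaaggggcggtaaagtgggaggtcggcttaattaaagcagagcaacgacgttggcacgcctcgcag

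The window at 10.3 kb holds 3 cores, 1 of them 14 bp from the centre, and the window at 77.1 kb also holds 3, of which a pair lie 5 and 6 bp from the centre on opposite sides. The window at 39.8 kb holds 2 cores, 54 and 87 bp from the centre. The 9-mer GCGTGGGCG occurs without mismatch at 39.8 kb and at 77.1 kb. These are matches of letters and do not show that Stripe contacts the DNA there.

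The remaining 2 shared regions of the locus overlapped exons. One, 69.1 kb from the distal TSS at chr3R:9943663-9943932, lay in an exon that codes for Glut4EF protein and is untranslated in CG46467-RA. Its signals were 51.7, 48.0 and 59.9 in replicates 1, 2 and 3 (53.2 ± 6.11), and it held 2 cores. The other lay 3.61 kb from the distal TSS at chr3R:9878129-9878482, in an exon of lncRNA:CR45029, a long non-coding RNA gene that runs against Glut4EF inside its first intron. Its signals were 36.1, 58.1 and 67.6 (53.9 ± 16.2), it held no core, and its summits were 94 bp apart between libraries. That spread of summits was the widest of the 12 regions, whose median was 27.5 bp, against 28 bp over all 1180 shared regions.

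**Figure D1:**
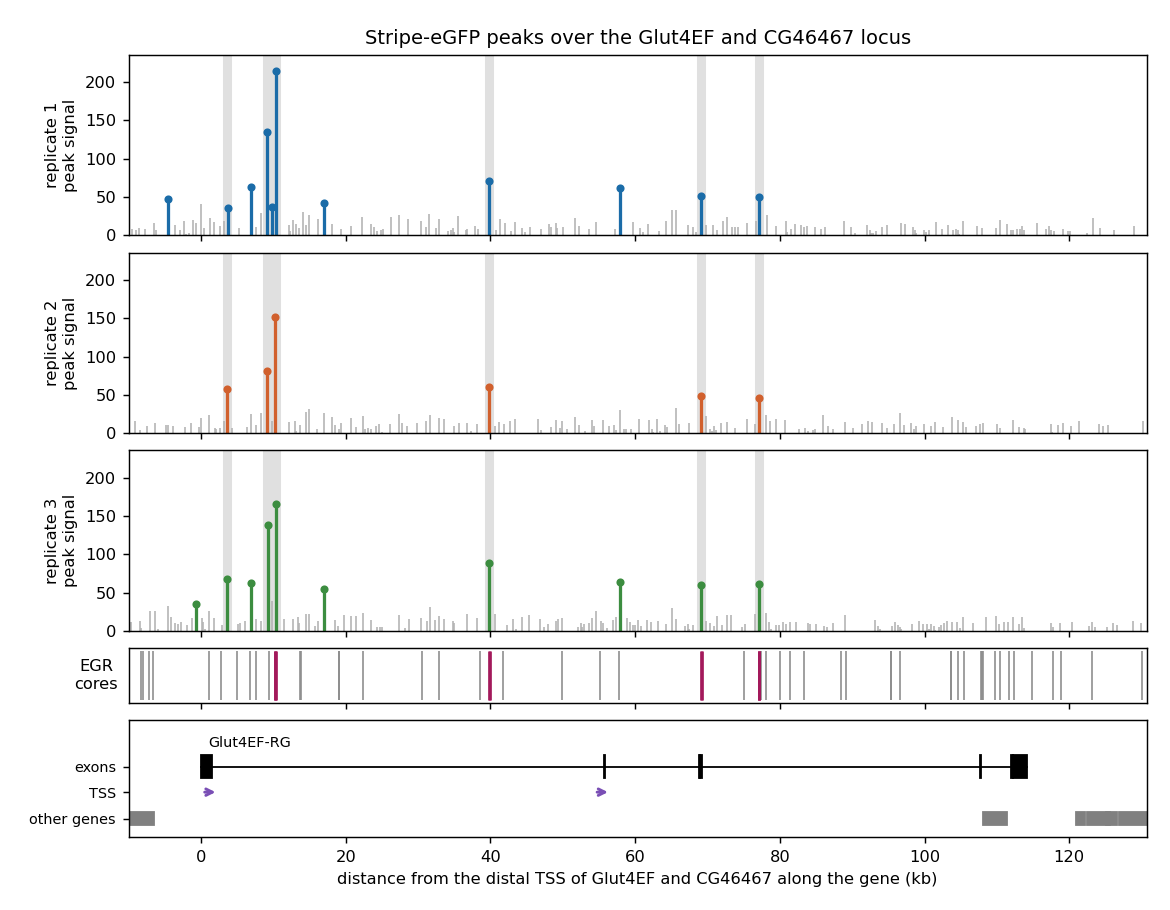
Authors' peak signal against distance from the distal TSS (kb) over the Glut4EF and CG46467 locus, with 1 panel per replicate; coloured stems with dots are thresholded peaks, grey stems are peaks of the ranked list alone, and grey bands are the 6 shared regions. Below stand the EGR cores (dark red within 100 bp of a shared centre) and the exons of Glut4EF-RG with the 2 TSSs and other protein-coding genes: the tallest peaks, with signals of 152 to 214, stand 10.3 kb into the gene, and the last 53.4 kb holds no thresholded peak.

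The gene sbb (FBgn0285917) lies on the minus strand at chr2R:18278198-18357296, is 79.099 kb long and ranks 138 by length. Its transcripts start at a distal TSS at position 18357296 or at an inner TSS at 18288761. The first intron of sbb-RJ is 65649 bp long and carried 5 of the 6 shared regions, and the sixth lay at the distal promoter. The other 9 introns of sbb-RJ are between 66 and 1146 bp long and carried no thresholded peak in any library.

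The promoter region, centred 139 bp upstream of the distal TSS at chr2R:18357301-18357578, had signals of 49.5, 54.8 and 78.3 in replicates 1, 2 and 3 (60.9 ± 15.3, SD, n = 3). It held no EGR core. Among the 12 regions it was the only one at a promoter, a class that took 37.6% of all 1180 shared regions. Of the 12, 9 (75.0%) had their centre in an intron outside any exon, against 41.4% of all shared regions. Long introns also fill most of both loci. The first intron of sbb-RJ takes 65649 bp of 99.099 kb, and introns 1, 2 and 4 of Glut4EF take 54140, 12935 and 38384 bp of 140.684 kb. No preference for introns is therefore read from these shares.

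Within the first intron, 4 shared regions of sbb lay close together, between 18.8 and 22.0 kb from the distal TSS. The strongest, at 20.1 kb and chr2R:18337089-18337277, had signals of 133, 115 and 136 in replicates 1, 2 and 3 (128 ± 11.4), with summits within 4 bp of each other and 1 core 66 bp from the centre. Its neighbour 375 bp away, at 20.5 kb, had signals of 51.2, 55.7 and 52.6 (53.2 ± 2.30) and held 3 cores. So the region with the higher signal in each library held fewer cores than its neighbour.

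The outer pair of that group held no core. The region at 18.8 kb, chr2R:18338320-18338612, had signals of 51.9, 48.1 and 97.8 in replicates 1, 2 and 3 (65.9 ± 27.7), with the value of replicate 3 well above the other two. Its window had a GC content of 27.4%, the lowest of the 12. The region at 22.0 kb, chr2R:18335119-18335422, had signals of 44.8, 50.7 and 61.9 (52.5 ± 8.68).

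The last shared region of sbb stood alone at 31.4 kb, chr2R:18325788-18326057, with signals of 79.2, 58.8 and 102 in replicates 1, 2 and 3 (80.0 ± 21.6). It held 1 core, 15 bp from its centre. Gaps between neighbouring shared regions ran between 0.375 and 18.96 kb at sbb and between 1.129 and 29.5 kb at Glut4EF. The close group of sbb lay between 18.8 and 22.0 kb from the distal TSS, with a single region beyond it. At Glut4EF only the regions at 9.18 and 10.3 kb lay as close as 1.129 kb, with single regions further along.

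**Figure D2:**
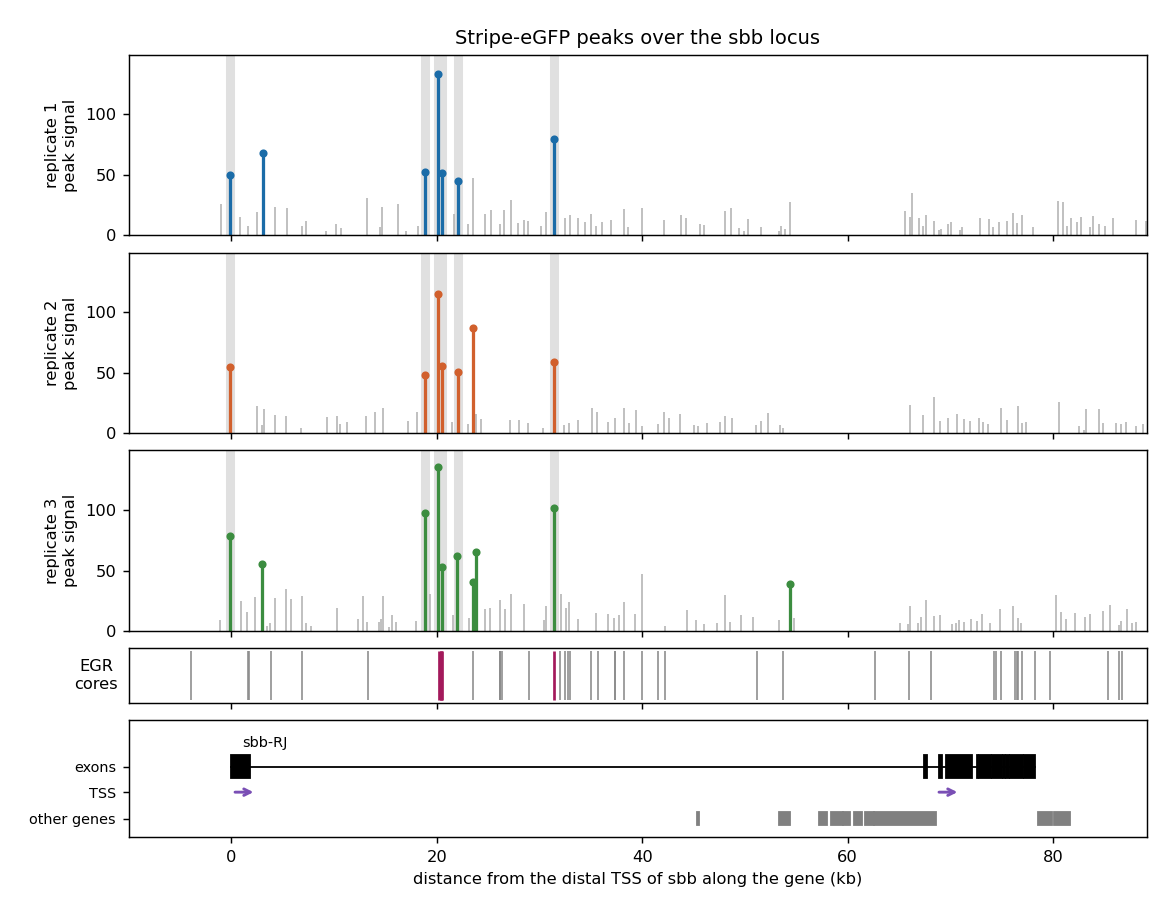
Authors' peak signal against distance from the distal TSS (kb) over the sbb locus, drawn in the direction of transcription, with panels, colours and bands as in the map of Glut4EF. A group of 4 shared regions stands between 18.8 and 22.0 kb, with the peaks of 115 to 136 at 20.1 kb, and the stretch beyond 31.4 kb, which overlaps CG14502, CG18536, CG18537, CG18538, CG18539, CG18540, CG14505 and Tango8, carries 1 thresholded peak in replicate 3 alone.

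Ordered by mean signal, the 12 regions ran through 10.3 kb at Glut4EF (177), 20.1 kb at sbb (128), 9.18 kb at Glut4EF (118), 31.4 kb at sbb (80.0) and 39.8 kb at Glut4EF (73.0). The 7 others had means between 52.5 and 65.9, which differ by less than the largest SD among them. Libraries ranked the 12 regions alike in part, with Spearman's rho of 0.685 between replicates 1 and 2, 0.790 between replicates 1 and 3, and 0.748 between replicates 2 and 3. These are descriptions over 12 regions that share the control file used for all 3 libraries. The mean percentile of a region within the lists had a median of 56.8 over the 12 regions, against 68.7 over all shared regions. The same 7 others lay below that overall median, and the regions listed by name lay above it. Such a split is close to even, so nothing is read from the lower median of the 12 regions. The median coefficient of variation of the signal was 19.3% over the 12 regions, against 23.2% over all shared regions.

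**Figure D3:**
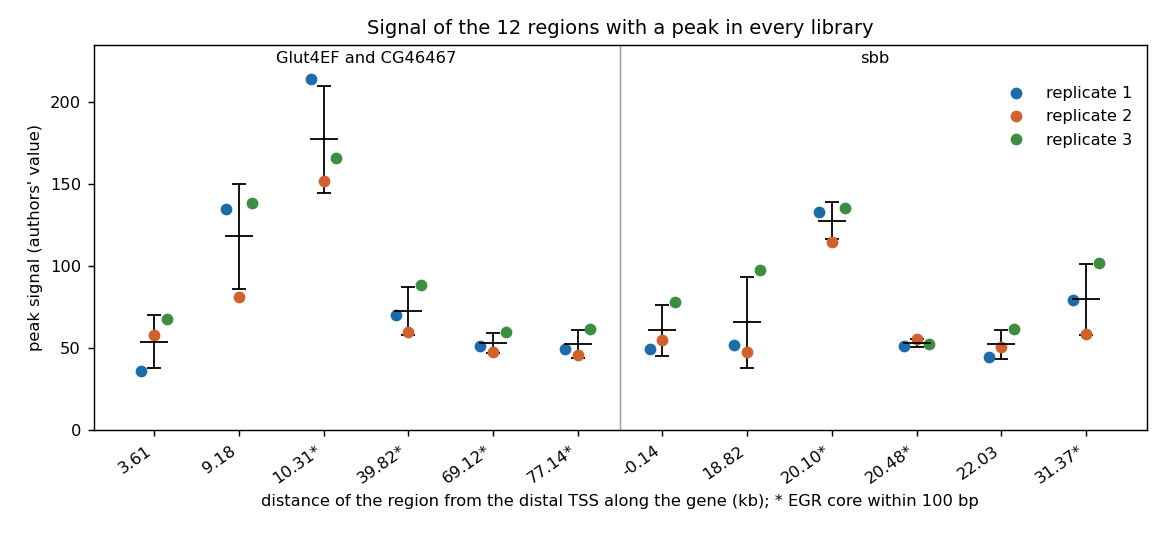
Authors' peak signal of the 12 shared regions (points, 1 per replicate; black bars, mean and SD over 3 libraries), placed by locus and distance from the distal TSS (kb), with an asterisk where an EGR core lay within 100 bp of the centre. The regions at 9.18 and 10.3 kb of Glut4EF and at 20.1 kb of sbb stand above the rest, with every library at 81.2 or more.

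The EGR core lay within 100 bp of the centre in 7 of the 12 shared regions, or 58.3% with a Wilson 95% interval of 32.0 to 80.7% that covers counting error only. The share was 49.1% among all shared regions and 56.6% among those in introns, and both values lie inside that interval. At Glut4EF and CG46467 4 of 6 regions held the core, and at sbb 3 of 6 did. Regions with 2 or more cores numbered 5 of 12, 4 of them at Glut4EF, against 15.8% overall. By number of libraries, the core was present in 7 of 12 regions with peaks in all 3 libraries, 2 of 5 with peaks in 2 libraries and 0 of 5 with a peak in 1, against 49.1%, 37.7% and 25.5% over the arms.

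A different motif, GAGAG on either strand, the repeat bound by the GAGA factor that keeps promoters open, lay within 100 bp of the centre in 1 of the 12 regions, against 36.6% of all shared regions. The match was in the 77.1 kb region of Glut4EF. GC content of the windows had a median of 51.5% at Glut4EF and CG46467 and of 39.3% at sbb, against 47.8% over all shared regions.

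**Figure D4:**
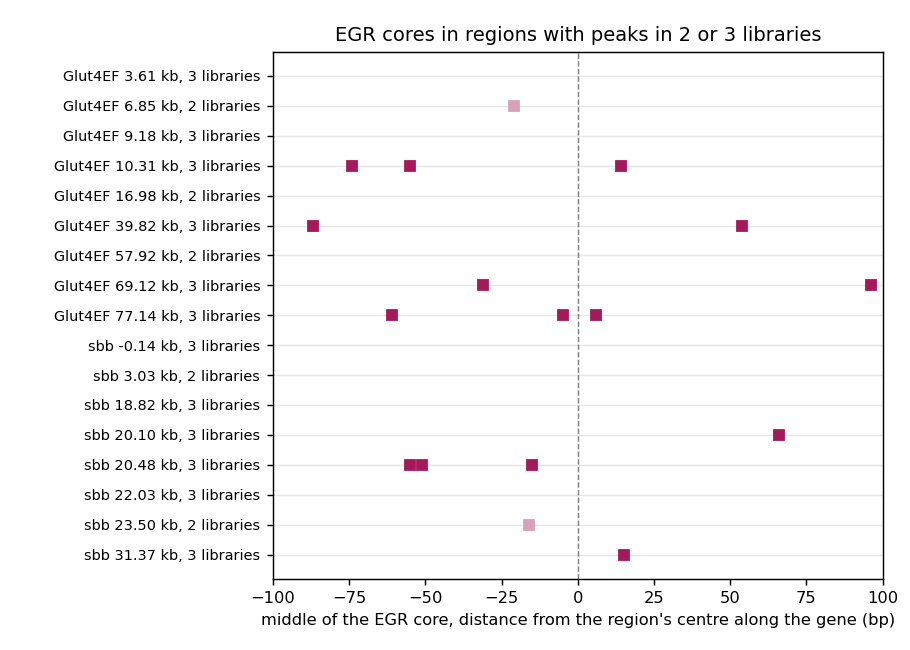
Position of each EGR core (squares) relative to the centre of its region (bp along the direction of transcription), for the regions with peaks in all 3 libraries (dark) or in 2 libraries (light). Of the 15 cores in shared regions 6 lie within 50 bp of the centre, and 5 shared regions have no square.

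Most copies of the core at the 2 loci had no shared region. The search found 105 cores, 59 at Glut4EF and CG46467 (4.19 per 10 kb) and 46 at sbb (4.64 per 10 kb), against 4.08 per 10 kb over the arms. Of these, 15 (14.3%) lay within 100 bp of a shared centre, against 1.54% of the 54645 cores over the arms, a share that the choice of genes with many shared regions raises by itself. Among intronic cores the share was 18.3% at the loci, against 2.00% over the arms. Cores within 100 bp of one another were treated as a cluster: 3 of 11 clusters (27.3%) had a shared centre nearby, against 2.77% over the arms, and 6 of 79 single cores (7.59%), against 1.07%. The exact 9-mer occurred 5 times at the loci, 2 of them near a shared centre, against 6.81% over the arms. The choice of genes raises the intronic, cluster, single-core and 9-mer shares in the same way, so nothing is read from them. A ranked peak of any strength had its summit within 100 bp of 74 of the 105 cores (70.5%), against 49.3%. Ranked peaks were also denser at the loci, at 8.38 to 12.7 per 10 kb against 6.05 to 6.65 over the arms. Nothing about the cores is therefore read from that share.

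Of the 4 TSSs, the distal one of sbb was the only one with a thresholded peak within 500 bp in any library. At the distal TSS of sbb all 3 libraries had a thresholded summit 133 to 148 bp away. At the distal TSS shared by Glut4EF and CG46467 the nearest thresholded summit was 3.67, 3.57 and 0.685 kb away in replicates 1, 2 and 3, and the highest ranked peak within 500 bp had signals of 40.7, 20.5 and 17.6 with global IDRs of 0.178, 0.566 and 0.592. None of those ranked peaks passed the threshold. At the inner TSS of Glut4EF the highest ranked signals were 17.8, 17.2 and 26.6, and at the inner TSS of sbb they were 11.9, 30.1 and 13.03, all below the threshold.

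The ends of both genes carried few thresholded peaks. Beyond the region at 77.1 kb, the last 53.4 kb of the Glut4EF locus had no thresholded summit in any library, although it held 62, 52 and 62 ranked peaks, with highest signals of 26.1, 26.8 and 23.2, and 26 EGR cores. That stretch includes Art4, an arginine methyltransferase gene inside the fifth intron, and part of Mical, which encodes an actin-oxidising enzyme. Beyond the region at 31.4 kb, the last 57.6 kb of the sbb locus had 61, 53 and 56 ranked peaks and 29 cores but only 1 thresholded summit, in replicate 3, 1058 bp downstream of the TSS of CG14505, just past the end of that gene. No library had a ranked peak of any strength between 54.8 and 65.1 kb from the distal TSS, over CG18536 to CG18540 and part of CG14502. Why ranked peaks are missing there was not tested, so that stretch is not read as free of binding.

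Over the whole loci, the thresholded lists had 11, 6 and 10 summits at Glut4EF and CG46467 in replicates 1, 2 and 3, out of 171, 161 and 178 ranked peaks, and 7, 7 and 10 at sbb out of 98, 83 and 99. Passing shares were thus 6.43%, 3.73% and 5.62% at Glut4EF and 7.14%, 8.43% and 10.1% at sbb, against 3.38%, 1.87% and 3.42% of all ranked peaks; the genes were chosen on such peaks, so nothing is read from this. Ranked peaks of any strength stood at 12.2, 11.4 and 12.7 per 10 kb at Glut4EF and at 9.89, 8.38 and 9.99 at sbb, against 6.05, 6.65 and 6.53 over the arms. The sbb densities are over the whole locus, although no library had a ranked peak further upstream than -1.07 kb. Annotated transposable elements cover that flank from position 18358464 to the end of the locus, and their part in this was not tested.

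Besides the 12 shared regions, 5 had thresholded peaks in 2 libraries, and in 4 of these the missing library was replicate 2, which had the shortest list. The region at 6.85 kb of Glut4EF had signals of 63.5 and 62.3 in replicates 1 and 3 and held a core 21 bp from its centre, while replicate 2 had a ranked peak there with a signal of 25.1 and a global IDR of 0.156. At 16.985 kb the signals were 42.6 and 54.5, with 26.6 in replicate 2 at a global IDR of 0.0443. At 57.9 kb, in the second intron and 3.69 kb beyond the inner TSS, they were 62.0 and 63.7, with 29.9 in replicate 2 at a global IDR of 0.191. Replicate 2 thus had a weaker peak at each of these 3 sites, not an empty one.

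At sbb the region at 3.03 kb had signals of 68.3 and 55.8 in replicates 1 and 3, and the strongest ranked peak of replicate 2 close by had a signal of 20.4 with its summit 174 bp away, while a weaker one of 6.43 lay nearer. The region at 23.5 kb had signals of 86.9 and 40.7 in replicates 2 and 3 and held the exact 9-mer. Replicate 1 had a ranked peak there with a signal of 47.7, higher than the 36.1 that passed the threshold in the same library at the lncRNA:CR45029 exon, but its global IDR was 0.0737. The order of signals within a library therefore did not decide alone which peaks were thresholded.

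Peaks in 1 library alone numbered 5, and none of their regions held a core. At Glut4EF these were 2 upstream of the distal TSS, with signals of 46.9 in replicate 1 at -4.52 kb and 35.8 in replicate 3 at -0.685 kb, and 1 in the first intron at 9.86 kb with 36.4 in replicate 1. The one at -4.52 kb lay nearer to the TSS of the neighbouring gene Teh1, at -2041 bp from it. At sbb they were 65.6 at 23.8 kb and 38.7 at 54.4 kb, both in replicate 3. When the limit was loosened to a global IDR of 0.05 in all 3 ranked lists, 1 further region appeared, the one at 16.985 kb of Glut4EF described above, against 496 over the arms.

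The authors' 4 lists made from all 3 libraries had their own peaks at the loci. All 12 shared regions were in each of the 4 lists, which is no independent support since the lists use the same reads. In the list that compared replicates 1 and 2 there were 14 thresholded summits at Glut4EF and CG46467 and 8 at sbb, and in the conservative list, which compared replicates 1 and 3, there were 14 and 14. The list of replicates 2 and 3 had 10 and 8, and the longest list had 19 and 12. Of these summits 10 at Glut4EF and 7 at sbb had no thresholded library peak in the same place, and 3 of those 17 had a core within 100 bp.

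The most widely listed of them lay 31.5 kb into Glut4EF, with its summit at 3R position 9906228, in all 4 lists with a joint signal of 76.1. Ranked peaks there had signals of 28.4, 23.3 and 31.8 in replicates 1, 2 and 3, and the nearest thresholded library summit was 8248 bp away. At sbb, a summit in the first intron 39.97 kb from the distal TSS was in 2 lists with a joint signal of 78.7, and its library signals were 22.8, 6.31 and 47.5. So this second one rested mainly on replicate 3.

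**Figure D5:**
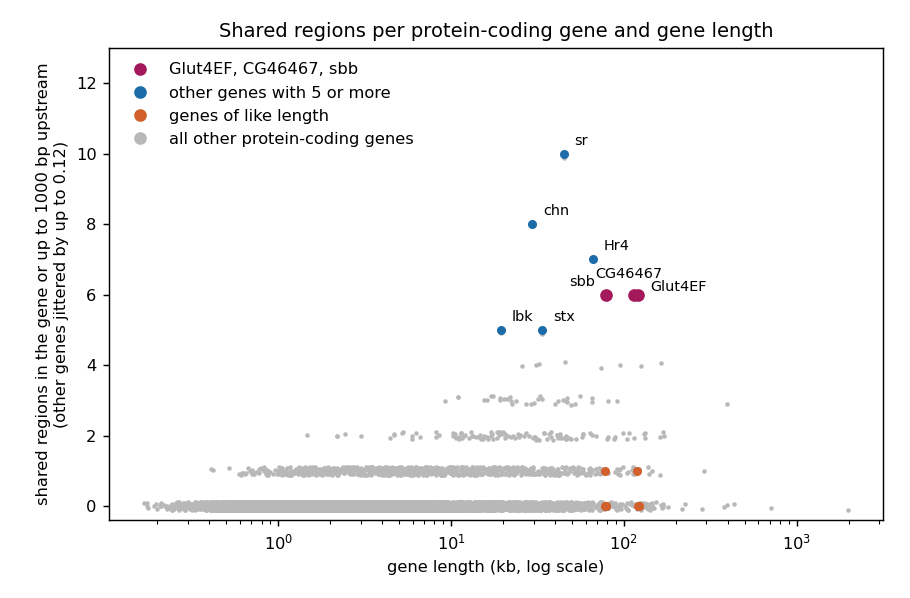
Shared regions per protein-coding gene, with the gene body and 1000 bp upstream searched, against gene length (kb, log scale). Glut4EF, CG46467 and sbb stand at 6 regions to the right of sr, chn and Hr4, which hold 10, 8 and 7 in shorter genes, and the 8 genes of like length stand at 0 or 1.

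Few genes of such length held as many regions. Among the 138 protein-coding genes as long as sbb or longer, 2.17% held 6 or more shared regions, and these were the 3 members, while 92 held none. The members were chosen on this count and the length limit is that of sbb itself, so the share is a description and nothing is read from it. Of the 2 next longer and 2 next shorter genes around Glut4EF, shep, Svil and jing held 0 and CG43867 held 1. Around sbb, Hs6st, pros and para held 0 and shot held 1. The other genes with 5 or more were shorter: sr itself held 10 regions in 44.8 kb, chn 8 in 29.5 kb, Hr4 7 in 66.0 kb, lbk 5 in 19.4 kb and stx 5 in 33.8 kb. Per 10 kb of gene, Glut4EF held 0.497, CG46467 0.525 and sbb 0.759 shared regions, against 1.06 in Hr4, 1.48 in stx, 2.23 in sr, 2.58 in lbk and 2.71 in chn. The members had the lowest density of the genes with 5 or more. They were also the longest of these genes, which lowers the density at a given count. Glut4EF and CG46467 were counted over the same 6 regions.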

How the data were processed

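ChIP-seq peaks came from 3 libraries of 1 group on dm6, and all values start from peak lists deposited by the authors. Peak signal is the authors' deposited value, with no normalization stated, and was ranked within lists. The −log10 of the global IDR is in the deposited ranked lists. Per the deposited notes, each library's lists used its own alignment and a control file common to the libraries. Which libraries the pair lists compare was read from matching peak coordinates (66.8 to 68.7% of the compared peaks matched exactly). No aligner or caller is named in the labels or notes used.

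Summits on 6 arms were widened by 100 bp and merged, and a region with summits of all 3 libraries was shared, with its centre at the mean of each library's best summit. Classes, TSSs and introns came from Ensembl release 115, and sequences from RefSeq. A promoter reached 500 bp from a protein-coding TSS. Motif windows of 201 bp were searched on both strands. Scripts ran in Python 3.11.15 with pandas 2.3.3 and numpy 2.4.6 and were tested on simulated data. No test was made, since there was 1 group and the genes were chosen on these peaks. Named genes were the members, genes nearest to a region in a locus, genes with 5 or more shared regions, and the 2 next longer and 2 next shorter protein-coding genes for Glut4EF and for sbb. Art4, Mical, Ote, CG14502 and CG18536 to CG18540 fall outside that rule and were named, after their values were seen, for their place in the loci. Members, lists, motifs and rules were chosen with earlier results of these data known. Core clusters, the 9-mer count over the arms, the gene ends and the TSS values were added after seeing the data. Alternatives covered the merging distance, number of libraries, threshold, list, window and motif.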

Additional observations from a re-analysis of the deposited data

How the results depend on the processing

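The counts of shared regions were 6 at Glut4EF and CG46467 and 6 at sbb, 7 of them with the EGR core. At a global IDR of 0.001 or less these became 3, 2 and 4, and with the peaks above each list's median signal they were also 3, 2 and 4. The conservative joint list gave 14, 14 and 11, and the longest joint list gave 19, 12 and 11, since these lists hold more peaks and need no peak in each library. Leaving out 1 replicate gave 6 to 9, 6 to 7 and 7 to 8. The 15 cores near a shared centre became 6 within 50 bp. The looser limit of 0.05 in all 3 ranked lists had added 1 region, which was below the threshold in replicate 2 alone. That count became 3 with at least 2 libraries, 2 at an IDR limit of 0.1 and 4 at 0.2, and 1 to 2 without 1 replicate. The other merging distances, windows and motif settings stayed within 1.5 times. Among them, widening summits by 200 bp gave 5 shared regions at sbb and 6 with the core at both loci. At that setting the sbb regions at 20.1 and 20.5 kb, 375 bp apart, are joined, so their contrast in cores depends on the merging distance. No paired analysis was possible because there was 1 group. Unknown read depth, a single control file, signals with no stated normalization and whole embryos limit all values, and a peak absent from a list may lie below its threshold.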

Other observations

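Some summits of the joint lists had low signals. A summit 77.4 kb into Glut4EF, 221 bp from the shared region at 77.1 kb, was in the conservative list with a joint signal of 3.72, and no library had a ranked peak there. Within 500 bp of the TSS of Ote, which encodes a nuclear lamina protein, a summit at 2R position 18276855 was in 3 joint lists with a signal of 29.6. Its ranked library signals were 28.4, 25.6 and 30.2, with global IDRs of 0.208, 0.782 and 0.418.

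A peak of replicate 3 at 9.86 kb of Glut4EF had a signal of 39.8 and a global IDR of 0.664, whereas the thresholded peak of replicate 1 at the same place had a signal of 36.4. The peak of replicate 3 at 23.8 kb of sbb had a signal of 65.6, above the median of its list, yet replicate 1 had no ranked peak there and replicate 2 had one of 16.03, and none of the 4 joint lists held it.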
